A study of Homo sapiens with 6 samples.

Results

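The CDK inhibitor genes of human cells were followed here together with MTAP, the gene beside CDKN2A on chromosome 9. The 8 members were taken by symbol, namely CDKN1A, CDKN1B, CDKN1C, CDKN2A, CDKN2B, CDKN2C, CDKN2D and MTAP, out of 57905 gene identifiers in the count tables, and all 8 were found. Total RNA of U87, an established human glioma cell line, had been sequenced in 6 libraries. Of these, 3 libraries were labelled control (genotype WT, treatment "no") and 3 were labelled siRBM47 (genotype and treatment siRBM47), for cells transfected with 100 pmol of a small interfering RNA against the RNA-binding protein RBM47. The labels do not say whether the control cells were transfected and do not describe the replicates as separate cultures. The p-values below therefore speak of the spread among these 6 libraries, which may be technical.

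CDK inhibitors are small proteins that hold back the cyclin-dependent kinases (CDKs), the enzymes that drive cells through division. The Cip/Kip family, p21 (CDKN1A), p27 (CDKN1B) and p57 (CDKN1C), binds several cyclin-CDK complexes. The INK4 family, p16 (CDKN2A), p15 (CDKN2B), p18 (CDKN2C) and p19 (CDKN2D), binds CDK4 and CDK6 and so keeps the retinoblastoma protein active. CDKN2A also encodes ARF, a separate growth-restraining protein, and MTAP recycles a by-product of polyamine synthesis back to methionine. Loss of the CDKN2A region is among the common lesions of glioblastoma, and U87 is known as a line that has lost CDKN2A and CDKN2C. DNA was not measured in these samples.

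The targeted gene was read first. RBM47 was at 1.62, 1.73 and 5.75 CPM (counts scaled to library sizes that TMM had adjusted for composition) in control replicates 1 to 3, while the libraries labelled siRBM47 held 3.54, 2.74 and 2.23 CPM. No fall was detected (log2 fold change -0.11, SE 0.50, edgeR adjusted p = 0.942), and the sign turned in 4 of the settings run, to 0.76 (adjusted p = 0.152) without control replicate 3, so directions below are between libraries as labelled. Total counts ranged from 15580000 to 18130000, rounded. Control replicate 3 stood apart: across genes, its Pearson correlation of log2 CPM was 0.941 and 0.950 with the other controls, which correlated at 0.988 with each other. Of the cell type markers read for orientation, VIM of the glial list was at 2831 to 4939 CPM. GFAP, the defining astrocyte marker, was at 0.338 to 1.49 CPM. S100B, another glial marker, was at most 0.387 CPM. The immune list summed to at most 0.828 CPM with ITGAM at 0 in all 6 libraries. The epithelial list summed to between 18.6 and 38.5 CPM, most of it KRT8 (17.3 to 36.8 CPM). OLIG2, another glial marker, was at 5.96, 7.02 and 8.41 CPM in control and 3.26, 4.17 and 4.58 CPM in siRBM47 (edgeR adjusted p = 0.190). NES of the glial list was at 13.1 to 15.2 CPM, with a log2 difference of 0.04 (edgeR adjusted p = 0.9495). SOX2 of that list was at 0.474 to 1.6 CPM, with a log2 difference of 0.29 (adjusted p = 0.827). The groups overlapped for both. The endothelial list, nearly all of it VWF, summed to 0.203, 0.345 and 3.03 CPM in control and 2.60, 1.20 and 1.73 CPM in siRBM47. PECAM1 of that list was not found by symbol, so the sum covers CDH5 and VWF alone. VWF, which encodes von Willebrand factor, moved with control replicate 3: its log2 difference was 0.60 (edgeR adjusted p = 0.754) over all 6 libraries and 2.68 (adjusted p = 0.00591) without that library. The part of these markers in the results below was not tested.

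Of the 8 members, 4 were abundant enough to be tested (CDKN1A, CDKN1B, CDKN1C and CDKN2D), each with at least 10 counts in every library. MTAP, CDKN2B and CDKN2C had 0 counts in all 6 libraries, and CDKN2A had counts in 1 library alone. On the deposited FPKM scale (counts scaled by gene length and library size), which allows levels to be set side by side between genes, CDKN1A was the most abundant at a mean over the 6 libraries of 152.6 (range 81.5 to 305). CDKN2D followed at 32.7 (20.4 to 59.6) and CDKN1B at 16.4 (13.0 to 24.0), and these neighbours in the order overlapped in range. CDKN1C was far below them at 0.473 FPKM (0.256 to 1.01), and the ranges of CDKN1A and CDKN2D, and of CDKN1B and CDKN1C, did not overlap. CDKN1A stood between the 96.3th and the 99.3th percentile of FPKM among tested genes in every library, and CDKN1C between the 6.4th and the 21.7th.

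The upstream sequences of CDKN1A and CDKN2D are shown because these were the most abundant members with the largest log2 differences after CDKN1C, and because control replicate 3 was high in the first and low in the second. They are from RefSeq (GRCh38.p14), 5′ to 3′ on the strand of the gene, and stop before the GENCODE exon that the RefSeq window reaches. For CDKN2D this is the first exon of the gene. The CDKN1A stretch lies inside the annotated gene, intronic to transcripts that start further upstream. Capitals mark GC boxes (GGGCGG) and CCAAT boxes (CCAAT) found on either strand, and the motif TATAAA was searched as well.

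CDKN1A, chr6:36678464-36678657, plus strand: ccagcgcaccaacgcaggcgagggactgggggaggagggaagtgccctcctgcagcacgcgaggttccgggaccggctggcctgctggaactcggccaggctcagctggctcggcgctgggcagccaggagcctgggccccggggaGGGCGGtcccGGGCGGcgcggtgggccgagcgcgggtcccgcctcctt

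CDKN2D, chr19:10569060-10569229, minus strand: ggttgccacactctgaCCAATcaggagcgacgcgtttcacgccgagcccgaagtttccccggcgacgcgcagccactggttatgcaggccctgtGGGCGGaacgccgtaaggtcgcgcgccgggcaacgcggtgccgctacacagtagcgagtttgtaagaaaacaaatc

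The CDKN1A stretch of 194 bases held 2 GC boxes and no CCAAT box, and the CDKN2D stretch of 170 bases held 1 of each. No TATAAA was found in either stretch. Among all 35116 RefSeq promoter windows cut to the same lengths, a GC box was present in 33.8% and 29.5%, a CCAAT box in 26.5% and 22.0%, and TATAAA in 7.5% and 6.9%. GC content was 76.8% for CDKN1A and 62.4% for CDKN2D, against medians of 57.2% and 56.5% in those windows. These matches describe letters and not bound sites.

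None of the 4 tested members passed the threshold between the labelled groups by edgeR (adjusted p under 0.05 over all 14578 tested genes, which 0.22% of the genes met). At an unadjusted p under 0.05, 3 of the 4 (CDKN1A, CDKN1C and CDKN2D) were lower in the libraries labelled siRBM47, against 8.94% of all tested genes in that direction. DESeq2 called CDKN2D alone (background 4.37% called), and limma-voom called 0 members (background 0.233%). With no filter on low counts edgeR called CDKN1A and CDKN2D (background 2.97%). The log2 difference was negative for 4 of 4 tested members, with a median of -1.02, where 51.2% of all tested genes were negative with a median of -0.01. Without control replicate 3 the 4 values were still negative, but their median was -0.67, beside 0.02 for all tested genes. In these bulk samples fewer cells with a transcript and less of it per cell cannot be told apart. Control libraries differed widely among themselves, so each member is given library by library.

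CDKN1A (ENSG00000124762, GRCh38 chromosome 6, 36676460 to 36687339, plus strand, protein-coding) encodes p21, the CDK inhibitor best known for arresting cells after stress. Its level was 410, 496 and 926 CPM in the controls, in the order of their numbers, against 244, 333 and 354 CPM in siRBM47. Every library labelled siRBM47 thus lay below every control library, as did 11.0% of all tested genes, and control replicate 3 was at 2.04 times the mean of the other two controls. The means were 611 ± 276 and 310 ± 58.7 CPM (SD, n = 3 each). Its log2 fold change stood at -0.98 (SE 0.31, 95% interval -1.66 to -0.29, edgeR adjusted p = 0.174), a ratio of 0.508. DESeq2 gave an adjusted p of 0.0502. Without control replicate 3, CDKN1A passed the edgeR threshold at a smaller difference of -0.55 (SE 0.17, adjusted p = 0.0358), where 11.3% of all tested genes were called lower. The noncoding gene DINOL, on the other strand, covers 4.8% of the CDKN1A exons, and reads of the pair cannot be told apart there because the kit in the labels keeps no strand information.

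CDKN1B (ENSG00000111276, chromosome 12, 12715058 to 12722371, plus strand) encodes p27, which restrains CDK2 in resting cells and is controlled largely by protein turnover. It was measured at 42.2, 43.0 and 68.8 CPM in control and at 47.5, 37.1 and 40.8 CPM in siRBM47. The groups overlapped, with control replicate 3 above the other 5 libraries, a place it took in 25.4% of all tested genes. Its log2 fold change stood at -0.30 (SE 0.23, 95% interval -0.82 to 0.23, edgeR adjusted p = 0.570), and -0.03 without control replicate 3 (SE 0.17, 95% interval -0.39 to 0.34, adjusted p = 0.929).

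CDKN1C (ENSG00000129757, chromosome 11, 2883213 to 2885773, minus strand), the imprinted gene of p57, was close to the limit of detection. It had 27, 13 and 50 counts in control and 12, 12 and 15 counts in siRBM47, or 1.83, 0.748 and 2.66 CPM against 0.663, 0.686 and 0.838 CPM. Control replicate 2 (exact Poisson 95% interval 0.398 to 1.28 CPM) lay among the siRBM47 libraries, and control replicate 3 (1.98 to 3.51 CPM) lay above the intervals of the siRBM47 libraries. Only counting error enters these intervals. CDKN1C had a log2 fold change of -1.25 (SE 0.51, 95% interval -2.40 to -0.11, edgeR adjusted p = 0.271). Without control replicate 3 it was -0.80 (SE 0.51, adjusted p = 0.281).

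CDKN2D (ENSG00000129355, chromosome 19, 10566462 to 10569059, minus strand) encodes p19, and was the one INK4 gene with more than 9 counts in any library. Its levels were 90.3, 78.2 and 32.6 CPM in control and 31.5, 31.1 and 33.7 CPM in siRBM47. The siRBM47 libraries lay within a narrow band, and control replicate 3 sat inside that band, well below control replicates 1 and 2 (0.387 times their mean). Control replicate 3 was below both other controls in 43.8% of all tested genes. The means were 67.0 ± 30.4 and 32.1 ± 1.42 CPM (SD, n = 3 each), with a log2 fold change of -1.06 (SE 0.33, 95% interval -1.80 to -0.33, edgeR adjusted p = 0.171; DESeq2 adjusted p = 0.0482). Without control replicate 3 it fell by 1.39 on the log2 scale (SE 0.16, 95% interval -1.73 to -1.05, edgeR adjusted p = 7.36e-05).

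**Figure D1:**
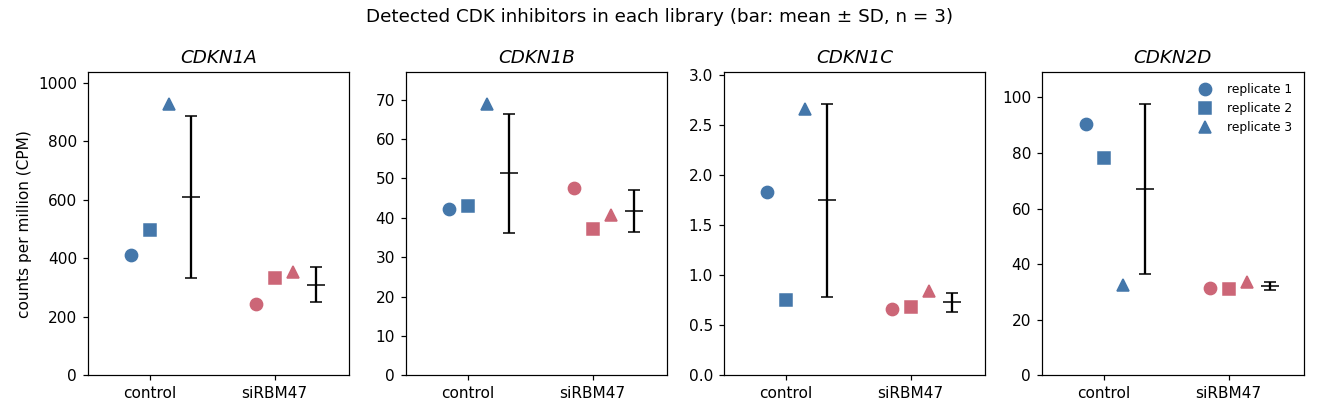
Level of the 4 detected CDK inhibitors in each library, in CPM on a linear axis from 0, with symbols for replicate number and bars for the mean ± SD (n = 3). Control replicate 3 (triangle) is the highest library for CDKN1A at 926 CPM, for CDKN1B at 68.8 and for CDKN1C at 2.66, and lies with the siRBM47 libraries for CDKN2D at 32.6.

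The balance between members therefore differed by library. Of the summed FPKM of the 4 detected inhibitors, CDKN1A made up 64.5%, 71.1% and 86.8% in control against 68.1%, 76.6% and 76.1% in siRBM47. CDKN2D made up 28.2%, 22.3% and 6.08% in control and 17.5%, 14.2% and 14.4% in siRBM47. The ratio of CDKN1A to CDKN2D in FPKM was 2.29, 3.19 and 14.3 in control and 3.89, 5.40 and 5.28 in siRBM47. The control libraries thus lay on both sides of the siRBM47 libraries, and the groups overlapped in this ratio. For CDKN1B the share of the sum was 7.04%, 6.55% and 6.85% in control and 14.1%, 9.05% and 9.31% in siRBM47, with no overlap. The level of CDKN1B itself overlapped between the groups, and its share is divided by a sum that is mostly CDKN1A. CDKN1C made up at most 0.331%. The summed FPKM was 212, 232 and 351 in control and 120, 144 and 156 in siRBM47, again with no overlap, and most of this sum is CDKN1A. These sums and shares are descriptions and were not tested.

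**Figure D2:**
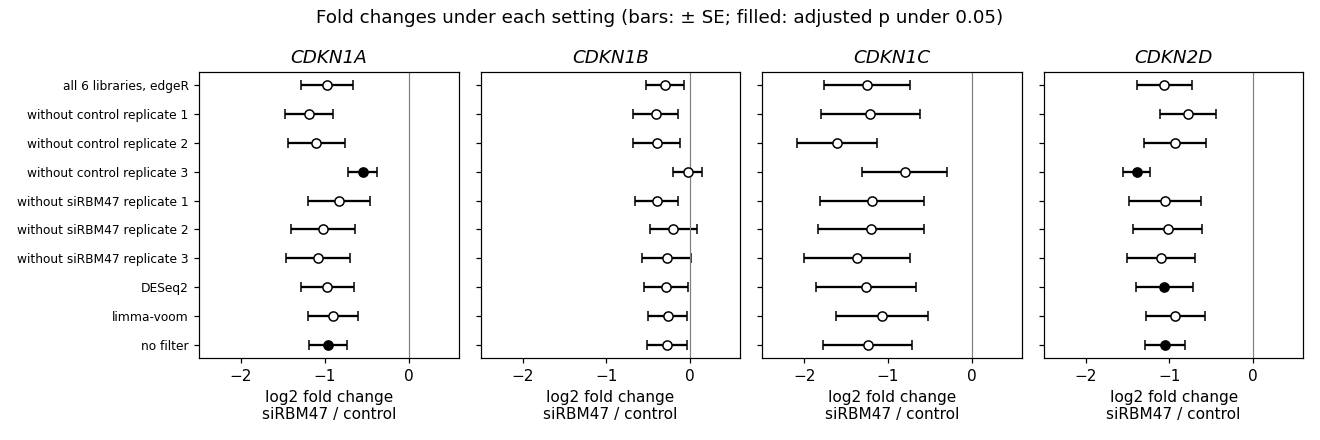
Log2 fold change of each tested member, siRBM47 over control, with all 6 libraries by edgeR, with each library left out, and under DESeq2, limma-voom and no filter (bars ± SE, filled symbols for an adjusted p under 0.05). The estimates for CDKN1A run from -1.19 to -0.55 and those for CDKN2D from -1.39 to -0.78, and in each case the value without control replicate 3 is at the end of the range.

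The genes whose levels across the 6 libraries were most like a member were found by the root mean square difference of centred log2 CPM. For CDKN1A they were LURAP1L (0.104), POLD4 (0.106) and PTPRJ (0.114), beside a range of 1.93 in CDKN1A itself, all on the log2 scale. For CDKN1B they were PRRG1 (0.041), NIBAN1 (0.044) and PCNX1 (0.051), beside a range of 0.89. For CDKN2D they were IQGAP3 (0.099), ASB1 (0.112) and LAT2 (0.112), beside a range of 1.54. IQGAP3, for example, was at 85.4, 80.9 and 36.0 CPM in control and 32.1, 36.4 and 33.6 CPM in siRBM47, so it too had control replicate 3 near the siRBM47 libraries. For CDKN1C, where counts are few, the nearest genes were further off (FBXO32 at 0.342, SLC9A5 and ITGBL1 at 0.345). Only genes with a symbol and a mean log2 CPM of 3 or more were compared, so none at the low level of CDKN1C could be chosen. With 6 libraries and many genes to choose from, near matches are common.

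At the CDKN2A locus, almost no transcript was counted. CDKN2A (ENSG00000147889, chromosome 9, 21967753 to 21995301, minus strand) had 9 counts in control replicate 1 (0.609 CPM, exact Poisson 95% interval 0.279 to 1.16) and 0 counts in the other 5 libraries. There, a limit of 3 counts set for a count of 0 is 0.160 to 0.173 CPM. The exact interval used for the 9 counts reaches further for a 0, to 3.7 counts or 0.196 to 0.212 CPM. Counts per gene do not separate p16 from ARF, and CDKN2B-AS1 on the other strand covers 7.9% of its exons and was itself at 0 in all 6 libraries. CDKN2B (ENSG00000147883, 22002903 to 22009363, minus strand) and MTAP (ENSG00000099810, 21802543 to 21937651, plus strand) had 0 counts in every library. The limit of 3 counts is 0.160 to 0.203 CPM per library, and the upper end of the exact interval is 0.196 to 0.250 CPM. MTAP, an enzyme of general metabolism that most cells express, shares 7.8% of its exon length with other genes on its strand and 1.8% with AL359922.2 on the other strand, where reads cannot be assigned with certainty.

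The 9 counts of CDKN2A in control replicate 1 were unusual for these files. It was the only one of 19262 protein-coding genes with at least 9 counts in that library and 0 in the other 5. For the other libraries the same tally gave 0 genes, except 1 in siRBM47 replicate 3 (CRYBA1). The number 9 was taken from CDKN2A itself, so the tally is a description.

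The genes around CDKN2A were read in the same way, over 3 Mb on each side. Between SLC24A2, which ends at 19786928, and ELAVL2, which starts at 23690104, no gene reached 10 counts in any library. This stretch of 3903 kb holds 25 protein-coding genes, among them the type I interferon cluster, and 22 of the 25 had 0 counts in all 6 libraries. By comparison, 17.0% of all protein-coding genes in the files were at 0 in every library and 67.5% had at least 10 counts in some library. Most of the 25 belong to the interferon cluster, all of it at 0. Such genes are mostly silent in unstimulated cells, so these shares are a loose comparison. Outside the interferon cluster, MLLT3, HACD4, MTAP, ENSG00000264545, CDKN2B and DMRTA1 were at 0 in every library. The other protein-coding genes there, CDKN2A, FOCAD and KLHL9, had counts in control replicate 1 alone. These genes were named after their values were seen. FOCAD and KLHL9 had 2 counts each in control replicate 1 and 0 elsewhere. Protein-coding genes of the stretch thus held 13 counts in control replicate 1, all in CDKN2A, FOCAD and KLHL9, and 0 counts in each of the other 5 libraries. A further 51 counts, spread over all 6 libraries, were in noncoding genes and pseudogenes. These were ENSG00000261402 with 23, CLIC4P1 with 19, ENSG00000270712 with 8, and C11orf98P1, which lies inside SLC24A2, with 1. ENSG00000261402 and ENSG00000270712 lie between 19926094 and 19958147, on the SLC24A2 side of the stretch.

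Outside the stretch, transcripts were counted again on both sides. On the side of lower coordinates were the ribosomal protein gene RPS6 with 74546 counts over the 6 libraries, the small GTPase gene RRAGA with 23427, HAUS6 of the spindle complex augmin with 3287, DENND4C with 1303, SLC24A2 with 301, the lipid droplet coat gene PLIN2 with 173 and the ceramidase gene ACER2 with 38. Of noncoding genes there, ENSG00000260912 had 116 counts and ENSG00000273226 had 56. On the other side ELAVL2, an RNA-binding protein gene of neurons, had 63, 71 and 84 counts in control and 157, 109 and 90 in siRBM47. Of the 35 protein-coding genes in the window, 8 reached 10 counts in any library, and none of the 8 lay between SLC24A2 and ELAVL2.

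CDKN2C (ENSG00000123080, chromosome 1, 50960745 to 50974633, plus strand) also had 0 counts in all 6 libraries, and its surroundings were read the same way, a step added after its values were seen. Its neighbour FAF1, the gene for a FAS-binding protein, which ends at 50960263, had 1 count each in control replicates 1 and 2 and 0 elsewhere. On the other side, C1orf185 was at 0, and RNF11, a ubiquitin ligase gene that starts at 51236271, had 1527, 1886 and 3269 counts in control and 3109, 2172 and 2400 in siRBM47. Beyond RNF11, EPS15 had 6418 counts over the 6 libraries and NRDC 18953. The nearest gene with 10 counts at lower coordinates was SPATA6, which ends at 48472208. It had 983 counts over the 6 libraries. Between SPATA6 and RNF11 lay 7 protein-coding genes. Of these, 4 were at 0 in every library and the other 3 (FAF1, AGBL4 and BEND5) at 2 or 3 counts in all.

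**Figure D3:**
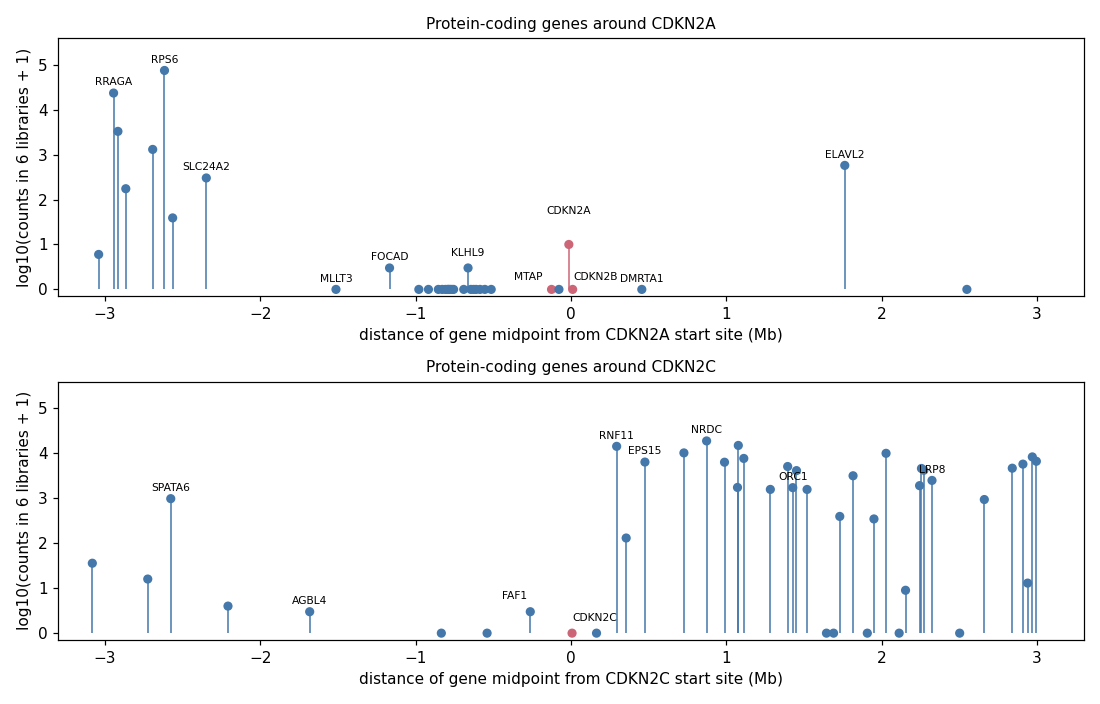
Summed counts of the 6 libraries for each protein-coding gene within 3 Mb of CDKN2A (top) and CDKN2C (bottom), as log10 of the count plus 1, against the distance of the gene's midpoint from the start site in Mb (members in red). Around CDKN2A the genes from MLLT3 to DMRTA1 lie at 0 or near it, with CDKN2A at 9 counts, between SLC24A2 at 301 and ELAVL2 at 574. CDKN2C and FAF1 lie at 0 and 2 counts beside RNF11 at 14363.

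The partners of these inhibitors were read from lists of pathway genes, and by edgeR 0 genes of the 6 lists passed over all tested genes. DESeq2 called 3 genes, all of the polyamine list (background 4.37%), and limma-voom called 0 in every list (background 0.233%). These counts rest on control replicate 3 and on the filter. Without control replicate 3 edgeR called 8 of the 85 tested list genes higher and 21 lower, where 10.1% of all tested genes were called higher and 11.3% lower. With no filter it called 5 (CDK6, CDC20, AMD1, MAT2A and SAT1), beside 2.97% of the 27110 genes in that fit. Counts at an unadjusted p under 0.05 follow, to be read against 7.15% of all tested genes higher and 8.94% lower. Of 15 tested CDKs and cyclins, 1 was higher and 3 were lower at that level, with a median log2 difference of -0.17. CDK6, the kinase that INK4 proteins bind, was at 42.0, 43.1 and 83.7 CPM in control and 123, 85.3 and 89.7 CPM in siRBM47 (log2 difference 0.82, SE 0.29, edgeR adjusted p = 0.222). CCND2, a D-type cyclin partner of CDK6, was at 2.64, 2.24 and 2.02 CPM against 0.773, 1.26 and 0.894 CPM (-1.23, SE 0.38, adjusted p = 0.171). CDK2, the main target of p21 and p27, had a log2 difference of -0.45 (SE 0.18, adjusted p = 0.265). Without control replicate 3, edgeR called 1 gene of this list higher (CDK6) and 3 lower (CCND2, CCND3 and CCNE1). The groups did not overlap for CDK6, CCND2 or CDK2, with CDK6 on the higher side, as were 11.6% of all tested genes, and CCND2 and CDK2 on the lower side, as were 11.0%.

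Of 12 tested genes of the RB family and E2F factors, 0 were higher and 1 was lower at an unadjusted p under 0.05 (median -0.11). E2F1, a transcription factor that the retinoblastoma protein holds in check, was at 171, 186 and 81.0 CPM in control and 75.2, 93.6 and 96.0 CPM in siRBM47 (-0.73, SE 0.29, edgeR adjusted p = 0.270). E2F2 was at 32.3, 32.6 and 12.9 CPM against 13.3, 17.0 and 16.7 CPM (-0.73, SE 0.33, adjusted p = 0.324). For both, control replicate 3 lay within or just below the range of the siRBM47 libraries, as it lay within their range for CDKN2D. Without that library edgeR called 0 genes of this list higher and 3 lower, namely E2F1 (-1.02, SE 0.15, adjusted p = 0.000675), E2F2 (-1.05, SE 0.19, adjusted p = 0.00174) and E2F8. TFDP1, the dimer partner of E2F proteins, had a log2 difference of 0.36 (SE 0.19, adjusted p = 0.387).

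Of 14 tested genes for ubiquitin ligase parts that act on p21 and p27, 1 was higher and 3 were lower at an unadjusted p under 0.05 (median -0.07). CDC20, an activator of the anaphase-promoting complex, was at 273, 271 and 148 CPM in control and 125, 147 and 141 CPM in siRBM47 (-0.74, SE 0.25, edgeR adjusted p = 0.195). CKS1B, which helps SKP2 to recognise p27, had a log2 difference of -0.44 (SE 0.19, adjusted p = 0.282), and CUL1, the scaffold of that ligase, one of 0.44 (SE 0.18, adjusted p = 0.270). When control replicate 3 was left out, edgeR called 2 genes of this list higher and 4 lower, CDC20 (-0.98, adjusted p = 0.000454) and CKS1B (-0.52, adjusted p = 0.0301) among them. Of 12 tested transcription regulators of CDK inhibitor genes, 0 were higher and 2 were lower (median -0.28, and 0.17 without control replicate 3). These 2 were SMAD3, a mediator of TGF-beta signalling, at -0.49 (SE 0.17, adjusted p = 0.214) and SP1, the factor that binds GC boxes, at -0.45 (SE 0.17, adjusted p = 0.247). ZBTB17, a partner of MYC at CDK inhibitor promoters, was at -0.42 (SE 0.23, adjusted p = 0.407). With control replicate 3 left out edgeR called 2 of these regulators higher and 3 lower, with SMAD3 (-0.53, adjusted p = 0.0277) and ZBTB17 (-0.60, adjusted p = 0.0237) among the lower.

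Polycomb proteins silence CDKN2A in many cells. The list of 15 read here also holds KDM6B, whose product acts against Polycomb silencing, so its counts are not those of silencers alone. Of the 15, 1 was higher and 5 were lower at an unadjusted p under 0.05 (median -0.10). JARID2 was at 42.2, 41.5 and 43.4 CPM in control and 24.6, 30.2 and 28.9 CPM in siRBM47 (-0.60, SE 0.18, edgeR adjusted p = 0.155), with the control libraries close together. EZH1 had a log2 difference of -0.86 (SE 0.26, adjusted p = 0.161) and PHC1 one of -0.67 (SE 0.22, adjusted p = 0.192). In the fit that left out control replicate 3, edgeR called 1 gene of this list higher and 6 lower. JARID2 (-0.58, adjusted p = 0.0271) and EZH1 (-0.75, adjusted p = 0.0423) were among the lower, and KDM6B was also among the genes called. The list around MTAP covers methionine salvage, polyamine synthesis and breakdown, and nearby genes of methylation such as PRMT5, WDR77 and AHCY. Of its 17 tested genes, 3 were higher and 3 were lower at an unadjusted p under 0.05 (median -0.02). AMD1, which makes the aminopropyl donor of polyamines, was at 66.3, 62.0 and 68.7 CPM against 126, 96.9 and 109.9 CPM (0.75, SE 0.18, adjusted p = 0.106). ODC1, the entry enzyme of polyamine synthesis, was at 95.9, 104.0 and 86.8 CPM against 51.8, 59.7 and 67.4 CPM (-0.68, SE 0.18, adjusted p = 0.132). SAT1, which starts polyamine breakdown, was at 111, 105 and 171 CPM against 69.7, 58.4 and 58.9 CPM (-1.05, SE 0.23, adjusted p = 0.0907). The groups did not overlap for these 3 enzymes, which are the 3 genes of the list with the smallest p, where 11.6% of all tested genes did not overlap on the higher side and 11.0% on the lower. DESeq2 called all 3, beside 4.37% of all tested genes. Leaving out control replicate 3, edgeR called 2 genes of the list higher and 2 lower, AMD1 (0.79, adjusted p = 0.00451), ODC1 (-0.75, adjusted p = 0.00572) and SAT1 (-0.80, adjusted p = 0.003) among them.

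**Figure D4:**
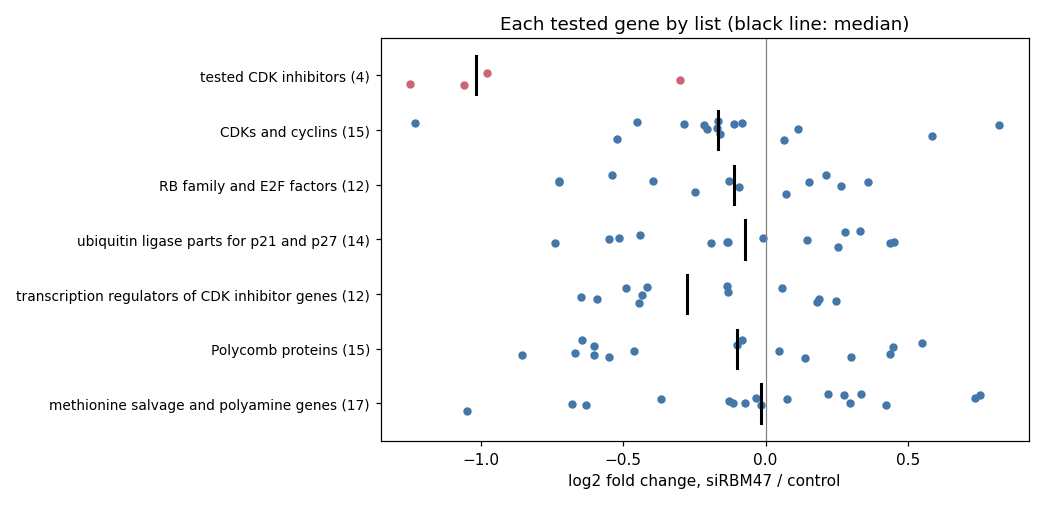
Log2 fold change, siRBM47 over control, of each tested gene (1 point a gene, number of genes in brackets, black line for the median) for the 4 tested CDK inhibitors in red and the 6 pathway lists in blue. All 6 libraries enter these values. The inhibitors have a median of -1.02 (-0.67 without control replicate 3), and the medians of the lists lie between -0.28 and -0.02 (between -0.24 and 0.17 without it).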

How the data were processed

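The 6 libraries (3 control, 3 siRBM47) were grouped and numbered by their titles. The authors deposited raw counts per gene, made on hg38 with HISAT2 2.0.5 and featureCounts 1.5.0-p3 according to the submitters' processing notes, beside FPKM values, per the file headers. Neither the annotation release nor the strand setting is known here. FPKM served only to set levels side by side between genes. Symbols were looked up by gene identifier, and positions were taken from GENCODE release 29 on GRCh38.

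The edgeR 4.0.16 quasi-likelihood test (R 4.3.3, TMM factors, no block) was run on the 14578 genes that filterByExpr kept at a minimum count of 10. P-values were adjusted by Benjamini-Hochberg over these genes, with 0.05 as threshold. Each standard error was computed by dividing the size of the log2 fold change by the root of its F statistic. Other settings tried were RLE and upper quartile factors, DESeq2 1.42.0, limma-voom (limma 3.58.1), no filter, 50 as minimum count, the replicate number as a block, and fits without each library. The members and gene lists were chosen with earlier results of these data known. Named were all members, the 3 genes with the smallest p of each list (more, up to 6, had they passed), window genes with at least 10 counts in a library and the 3 genes most like each tested member (mean log2 CPM of 3 or more, prior count 2). Other genes named, such as those at 0 near CDKN2A and the window of CDKN2C, were chosen after their values were seen. Some list results are not reported here. On simulated counts for the 14578 genes of this comparison the edgeR step found 18% of 2-fold and 82% of 4-fold changes, with 5 false calls among 105. The simulated counts had no library that stood apart as control replicate 3 does, so these figures may not hold for the data.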

Additional observations from a re-analysis of the deposited data

How the results depend on the processing

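The 4 tested members kept a negative log2 difference under all alternatives run. By edgeR 0 of them passed, as with RLE or upper quartile factors, limma-voom, a minimum count of 50 and the replicate block. DESeq2 called 1 (CDKN2D), and 2 (CDKN1A and CDKN2D) were called with no filter and without control replicate 3. With each library left out in turn the number ranged from 0 to 2. CDKN1A had an adjusted p of 0.00289 with no filter, and over all alternatives from 0.00289 to 0.440. For CDKN2D it ran from 7.36e-05 to 0.464. CDKN1C has too few counts for the minimum of 50 and was not tested there. Over all genes 32 passed, against 637 by DESeq2 and 804 with no filter. Leaving out single libraries gave 0 to 3117, the highest without control replicate 3. Of the 85 tested genes of the 6 lists, 0 passed, against 3 by DESeq2 (background 4.37%) and 5 with no filter (background 2.97%). Without control replicate 3, 29 passed, where 10.1% of all tested genes were called higher and 11.3% lower. The cause was not tested. The sign of RBM47 turned with limma-voom (0.10), the replicate block (0.12), without control replicate 3 (0.76) and without siRBM47 replicate 3 (0.04), and with each library left out it ran from -0.39 to 0.76.

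Libraries that share a replicate number were not paired by the labels. The correlations of their deviations from the group means were -0.036, 0.127 and 0.116, and not every library correlated best with its own number. With the replicate block 39 genes and 0 members passed. Depth limits the statements on CDKN1C, at 12 to 50 counts, and on the members at 0, where up to 3 counts per library cannot be told from none.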
